A study of Mus musculus with 12 samples.

Results

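Translation initiation and elongation factors are the proteins that load a ribosome onto an mRNA, place it at the start codon and then move it along the message. The genes described here are those listed under a symbol that begins with Eif1 to Eif6, Eef1 or Eef2, apart from the X- and Y-linked genes of the eIF2 gamma subunit, which were left out. A gene counted at a time point where the deposited table gave its locus the status OK, meaning that it was tested. This gave 60 of 15851 tested gene names at 2 h, 61 of 16246 at 24 h and 60 of 16559 at 7 d, with 61 genes at any time point and 59 at all 3. A further 6 matching symbols, mostly pseudogenes at or near an FPKM of 0, were tested at no time point, and Eif4g1 had no tested value at 7 d.

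RNA of the prefrontal cortex (PFC) was sequenced from adult male C57BL/6 mice (C57BL/6J in the study's methods), 10 weeks of age, that had received saline or cocaine (20 mg/kg/day, intraperitoneally) for 14 days. Tissue was taken when 2 h, 24 h or 7 d had passed since the final injection, so that there were 6 groups and 12 libraries, with 2 libraries per group and the PFC of 5 mice pooled in each. The deposited tables hold 1 value per gene and group, in FPKM (mapped fragments scaled to transcript length and library size), and every level given below is this pooled value of the authors. No level of a single library was used, so no difference has a replicate check, no SD and no test, and the depth of the libraries is unknown from these tables. In place of a test, a gene was counted as higher or lower when the levels of cocaine and saline mice differed by at least 1.2-fold. The counts of members are given beside the share of all loci past the same fold. In whole tissue, fewer cells of a type and less RNA per cell cannot be told apart.

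Initiation begins when eIF2, carrying the initiator tRNA, joins eIF1, eIF1A, eIF3 and eIF5 on the small ribosomal subunit, while the eIF4F complex brings in the capped mRNA. The pathway has a pair of well-known brakes on initiation, the eIF2 kinases, which phosphorylate eIF2 and so block its recycling by eIF2B, and the 4E-BPs, which hold the cap-binding protein eIF4E away from eIF4G. During elongation eEF1A delivers aminoacyl-tRNAs, eEF2 translocates the ribosome, and eEF2 kinase switches eEF2 off. In neurons these steps are known for their part in the local protein synthesis that accompanies synaptic plasticity.

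Many mRNAs of the translation machinery begin with a run of pyrimidines, the 5′ terminal oligopyrimidine (TOP) tract, through which mTOR controls their translation. Start sites of 8 genes that carry the results below are shown, with any tract in capitals. Each runs from 10 bases before to 20 bases from a start site listed in RefSeq (build GRCm38.p6). A tract was defined as a C followed by at least 4 bases that are C or T on the strand of the gene, beginning at most 10 bases from the start. The first 2, Eif3f and the most abundant member Eef1a1, hold a tract. The other 6 are genes past 1.2-fold without one at the start shown. Eif2ak4, at least 1.2-fold lower at 7 d, is not shown and holds a tract at each start listed for it. Eef2k has several starts with a sequence, of which the most upstream is given. The RefSeq genes of Eef2k (from chr7:120842642) and Eif4ebp2 (from chr10:61452790, − strand) begin further upstream than the starts shown.
Eif3f, chr7:108934405-108934434, + strand: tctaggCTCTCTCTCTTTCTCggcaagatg
Eef1a1, chr9:78481705-78481734, − strand: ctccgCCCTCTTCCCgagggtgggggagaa
Eif4ebp2, chr10:61452650-61452679, − strand: cgcagcgggacgaccgggcgagagcaggcg
Eef2k, chr7:120842821-120842850, + strand: cccgtgcgtcagtcccgccccagccctggt
Eif2a, chr3:58525811-58525840, + strand: gactccgcccgctccggagagggagggcga
Eef1e1, chr13:38659009-38659038, − strand: gtcctagctgtgcaggccccgcctccctag
Eif2b4, chr5:31193120-31193149, − strand: cccagtgcacgccggaagttgtagtccgct
Eif1, chr11:100319939-100319968, + strand: ggcgtcacaggggcggctatataagtgaat

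Of the 47 members with a start-site sequence, 15 held a tract at one of their starts (31.9%), against 34.4% of the 27025 genes with a sequence and 39 of 61 cytosolic ribosomal protein genes (63.9%). The factors as a class were no richer in this pattern than other genes, which does not say whether their mRNAs begin with a TOP tract. The 14 members with a tract had a median log2 ratio of cocaine over saline of -0.02 at 7 d, and the 32 without one of -0.11. Both groups spanned lower and higher ratios, and Eif3f, with the longest run of those shown, was on the higher side. A match is a description of these letters and not a mapped site.

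At 2 h and 24 h the factors were close to level between cocaine and saline mice. One member was at least 1.2-fold lower at 2 h, against 7.77% of the 13600 loci whose mean FPKM reached 1, and 2 were at least 1.2-fold higher, against 10.8%. At 24 h 1 of the 61 members was lower and 1 higher, where 5.9% and 6.45% of 13822 loci were. Of the 46 members whose mean reached 10 FPKM, none was past 1.2-fold at either time, where 2.48% of such loci were lower and 6.02% higher at 2 h, and 2.48% lower and 3.32% higher at 24 h. The median log2 ratio of the members, computed with 0.1 FPKM added to each level, was 0.01 at both times, beside 0.02 and 0.01 for all loci.

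At 7 d the members lay to the lower side. Of the 59 that passed the filter on low values, 47 had a lower level in cocaine than in saline mice (79.7%), where 52.6% of all 13674 loci did. Their median log2 ratio was -0.10, beside -0.01 for all loci. Among members whose mean reached 10 FPKM, 36 of 46 were lower (78.3%), where 60.6% of such loci were. The differences were small, and 5 members reached 1.2-fold lower and 2 reached 1.2-fold higher. Of all loci 12.4% and 8.42% did, so the count past 1.2-fold did not stand above the background. That holds for this fold only, as the lower quartile of the log2 ratio was -0.18 for the members and -0.14 for all loci. The 5 lower members were Eif2a, Eef1e1, Eif2ak4, Eif1 and Eif2b4, and the 2 higher ones were Eef2k and Eif3f. Eif2s2 and Eef1b2 lay just outside, both at a log2 ratio of -0.26, and Eif2b4 just inside at -0.27.

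**Figure D1:**
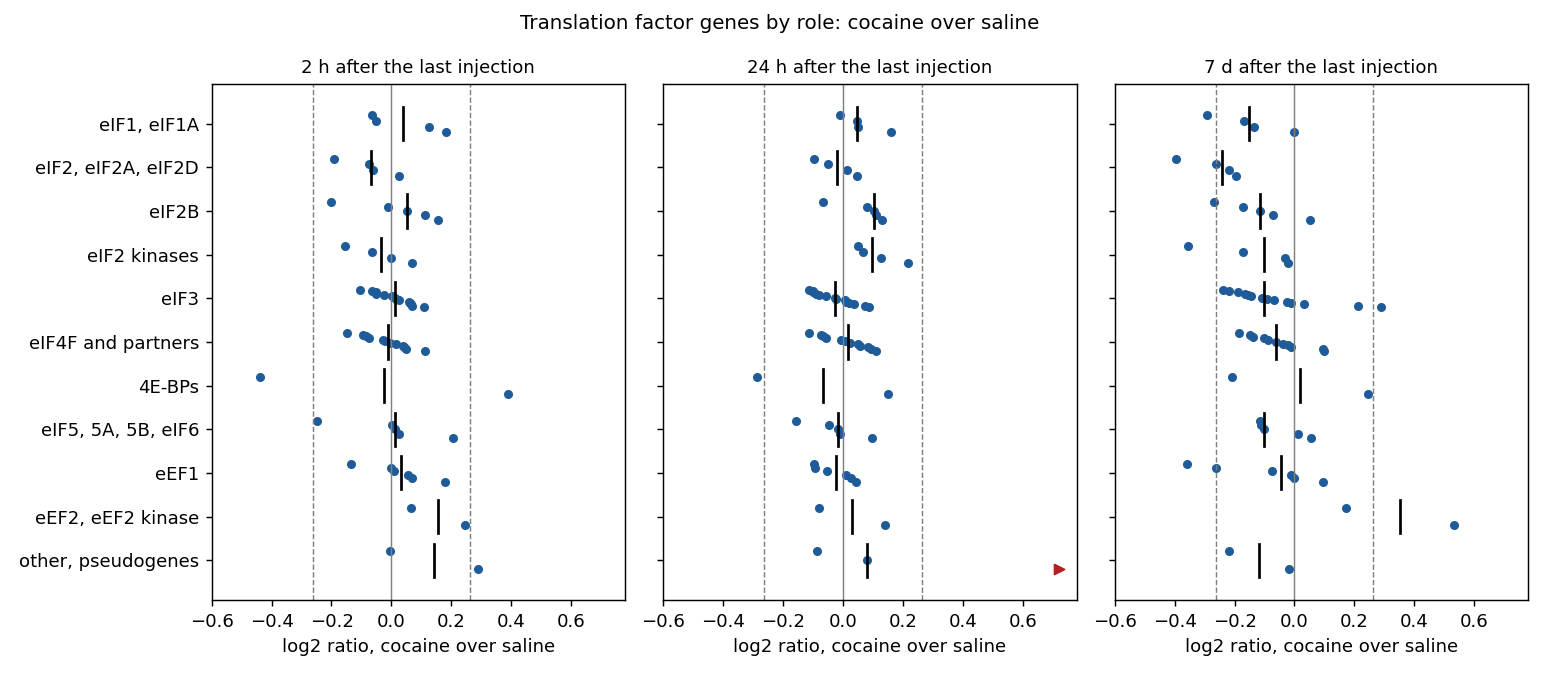
Each point is a translation factor gene, placed by its log2 ratio of cocaine over saline (0.1 FPKM added to each level) at 2 h, 24 h and 7 d, with the roles in rows, the median of each role as a black bar and dashed lines at 1.2-fold. The 7 d panel is shifted to the left, with medians of -0.24 for the eIF2 row and -0.15 for the eIF1 row, while eEF2 kinase stands at 0.53. The arrowhead at 24 h is Eif3s6-ps2, at 3.55, beyond the axis.

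Saline levels themselves were often highest at 7 d. In 33 of the 59 members measured at all time points the 7 d saline level was the highest of the 3 saline levels, where this held for 35.1% of all genes. The cocaine level at 7 d was below all 3 saline levels in 24 of 59 members (40.7%), where 25.2% of the 12618 genes were, and above all 3 in 4 members (6.78%), where 13.5% were. At 2 h 15 members were below (25.4%) and 14 above (23.7%), against 25.0% and 30.4% of all genes. At 24 h 16 were below (27.1%) and 13 above (22.0%), against 18.2% and 28.8%. The 3 tables were normalised separately, so levels set across time points carry that difference too. With the median of all loci subtracted from each group, the order of the time points turned. At 2 h 22 members were then below and 10 above, against 32.7% and 24.0% of all genes. At 24 h 21 were below and 7 above, against 25.4% and 21.4%. At 7 d 14 were below (23.7%) and 8 above (13.6%), against 17.7% and 20.2%, so 7 d then had the fewest members below.

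Transcript length moved with the ratio at 7 d. Over all loci the Spearman correlation between the log2 ratio and the length of the longest annotated transcript was 0.48 (10938 loci), and over the members it was 0.35 (55 genes). Genes of 1 library set share its composition and fragment sizes, so these correlations are descriptions. The 10 members under 1500 nt had a median log2 ratio of -0.19 at 7 d, beside -0.17 for all such loci. Those from 1500 to under 3000 nt had -0.07 (25 genes), beside -0.05, and those of 3000 nt or more had -0.03 (20 genes), beside 0.06. With the trend over all loci subtracted, the members' median at 7 d was -0.04, and 36 of 55 members were lower (65.5%), where 49.9% of loci were. The balance past 1.2-fold then turned, with 2 members lower, Eif2a and Eif2ak4, and 3 higher, Eef2k, Eif4ebp2 and Eif3f, against 5.34% and 6.07% of loci. With only the median of all loci subtracted, which places the loci evenly on both sides of 0, 43 of 59 members were lower at 7 d (72.9%). At 2 h and 24 h the correlation over the members was -0.01 and 0.13. The part of length in the 7 d values of single genes was not tested.

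**Figure D2:**
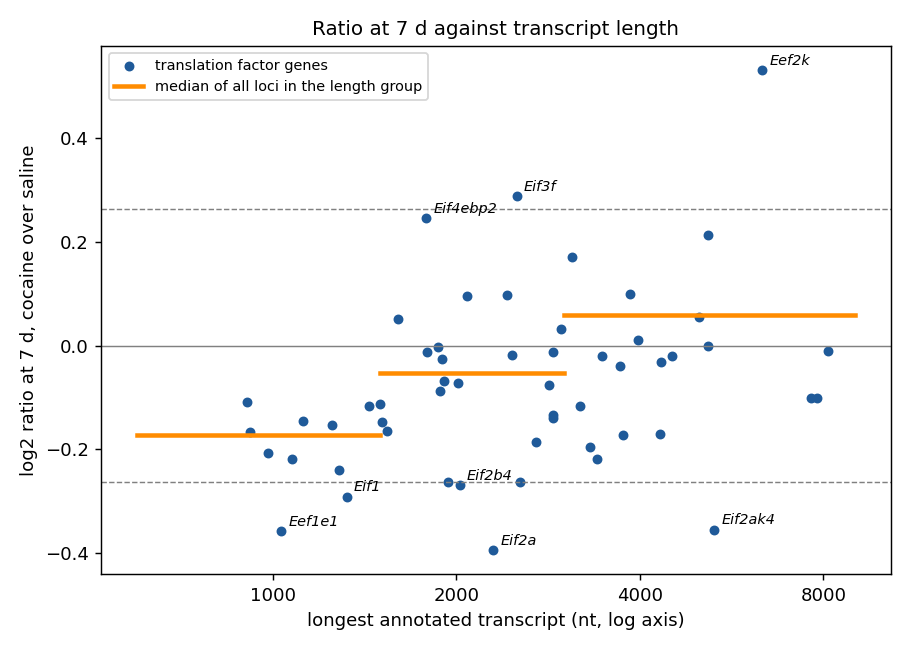
The log2 ratio of cocaine over saline at 7 d is plotted against the longest annotated transcript in nt (log axis) for the 55 translation factor genes with a length, with orange lines at the median of all loci under 1500 nt, from 1500 to under 3000 nt and of 3000 nt or more, and dashed lines at 1.2-fold. The orange medians climb from -0.17 to 0.06. Eef2k, Eif3f and Eif4ebp2 lie far above the line of their own length group, and Eif2a and Eif2ak4 far below it.

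The 4E-BPs, repressors of eIF4E, went in opposite directions. Eif4ebp1 had 5.53, 5.11 and 6.52 FPKM in saline mice of 2 h, 24 h and 7 d, and 4.06, 4.17 and 5.63 FPKM in cocaine mice. It was lower in cocaine mice at each time, by log2 ratios of -0.44, -0.29 and -0.21, and at 2 h and 24 h it lay below all 3 saline levels. Eif4ebp2, the form that predominates in brain, had 8.12, 8.44 and 6.85 FPKM in saline mice and 10.7, 9.39 and 8.14 FPKM in cocaine mice. Its log2 ratios were 0.39, 0.15 and 0.25, and its 7 d cocaine level, though above that of its own saline group, lay within the range of the saline levels. The ratio of the paralogs within a group does not depend on how the tables were scaled. Eif4ebp2 over Eif4ebp1 was 1.47 and 1.65 in saline mice of 2 h and 24 h and 2.63, 2.25 and 1.44 in cocaine mice of the 3 times. It was lowest in saline mice of 7 d, where the levels were nearly equal, and higher in cocaine mice at each time, although the 7 d value of cocaine mice lay within the saline range. The third gene of the family was listed in a locus shared with Ankhd1 and did not fall under the rule.

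Eif4ebp1 was the only 1 of 59 members that was lower by at least 1.1-fold at all 3 time points, where 1.53% of 12618 genes were. Eif4ebp2 and Eef2k were the 2 that were higher by that much at all 3, where 2.39% were. At a fold only 5% above equal the same 3 genes were counted, where 4.41% of genes were lower and 6.82% higher at all 3 times. These levels are all under 11 FPKM, and with 1 FPKM added to each level in place of 0.1 neither of the higher genes kept 1.1-fold at all 3 times. With the length trend subtracted, the 7 d log2 ratio of Eif4ebp1 was -0.03 and that of Eif4ebp2 was 0.32.

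**Figure D3:**
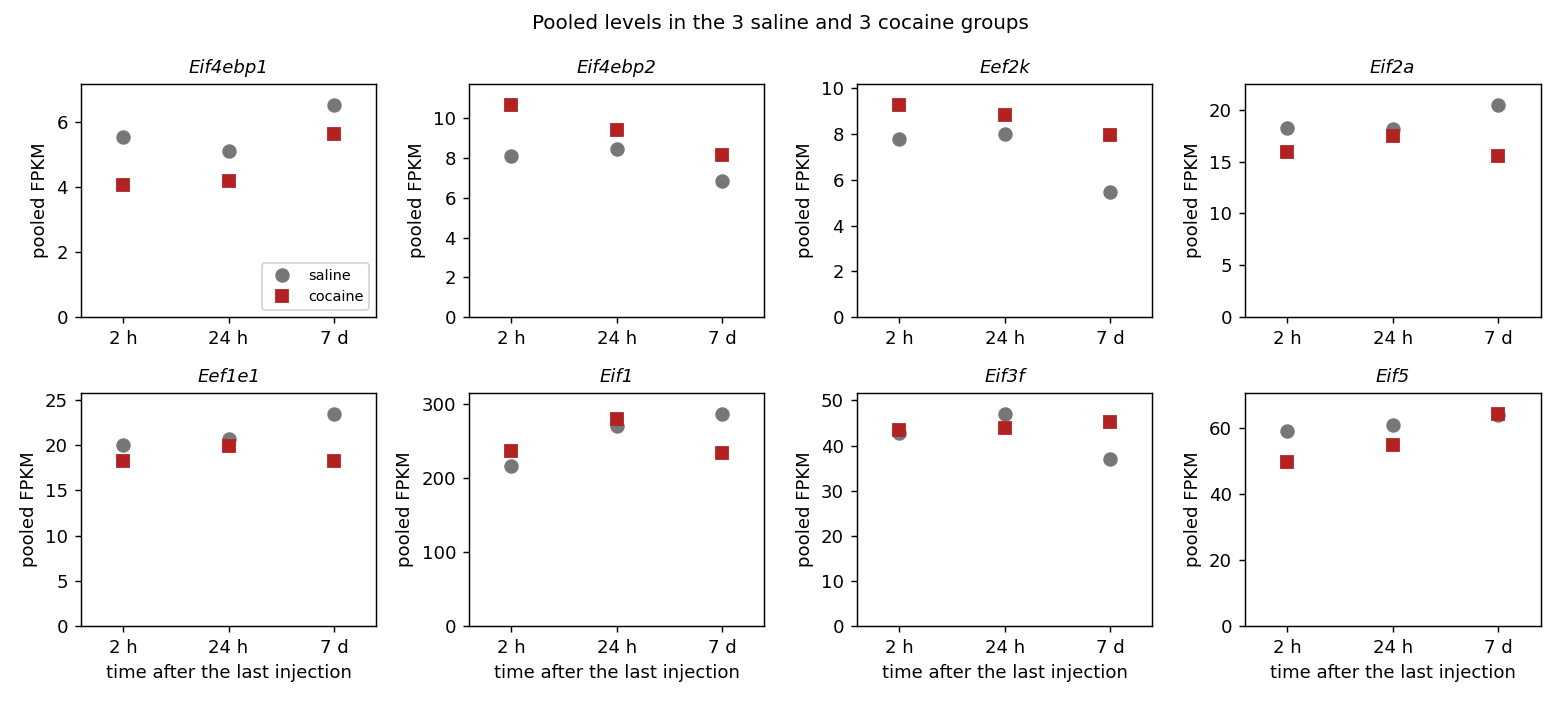
Pooled FPKM (each axis from 0) of 8 members in saline mice (grey circles) and cocaine mice (red squares) at 2 h, 24 h and 7 d after the last injection, with 1 value per group and no error bars. The cocaine level of Eif4ebp1 is under and those of Eif4ebp2 and Eef2k over the saline level of the same time in each case, whereas Eif2a and Eef1e1 in cocaine mice are under all 3 saline levels.

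The elongation brake eEF2 kinase gave the largest difference at 7 d among the 59 members past the filter on low values. Eef2k had 7.80, 8.01 and 5.48 FPKM in saline mice and 9.28, 8.84 and 7.96 FPKM in cocaine mice, with log2 ratios of 0.25, 0.14 and 0.53. At 2 h and 24 h the cocaine levels were above every saline level. At 7 d the cocaine level was close to the saline levels of the earlier times, and it was the saline level of 7 d that lay apart. Subtracting the length trend left a 7 d log2 ratio of 0.45. Its substrate Eef2 had 322, 385 and 313 FPKM in saline mice and 337, 364 and 352 FPKM in cocaine mice, so that all cocaine levels fell within the saline range. Eef2k over Eef2 was 0.0242, 0.0208 and 0.0175 in saline mice and 0.0275, 0.0243 and 0.0226 in cocaine mice, higher in cocaine mice of each time with overlap between times.

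The proteins that bring in the initiator tRNA showed the lowest median of any role at 7 d, -0.24. All 4 were lower, where 52.6% of all loci were. The eIF2 gamma subunit is not among them, and its X-linked gene Eif2s3x, outside the rule, had 25.2 FPKM in saline and 26.8 FPKM in cocaine mice at 7 d. Eif2a, which encodes eIF2A, a factor for initiation at some non-AUG codons that is distinct from the eIF2 complex, had 18.2, 18.1 and 20.5 FPKM in saline mice. In cocaine mice it had 15.9, 17.5 and 15.5 FPKM. The log2 ratios were -0.19, -0.05 and -0.39, the cocaine and saline levels did not overlap, and the 7 d log2 ratio was -0.35 with the length trend subtracted. Eif2s1, which encodes the alpha subunit that the eIF2 kinases phosphorylate, was also below all 3 saline levels at every time, at 11.6, 11.03 and 10.8 FPKM in cocaine mice against 12.1, 11.8 and 12.6 FPKM in saline mice. Eif2s2, the beta subunit, was close to level at 2 h (22.8 and 23.3 FPKM in saline and cocaine mice) and 24 h (22.4 and 22.6 FPKM), and lower at 7 d (25.6 and 21.3 FPKM). Eif2d, an eIF2-independent carrier, had log2 ratios of -0.08, 0.05 and -0.20.

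Of the eIF2B subunits, which reload eIF2 with GTP, 4 of 5 were lower at 7 d and 1 of 5 lower at 24 h, where 52.6% and 47.0% of all loci were lower. Eif2b4 had 11.6, 10.99 and 13.2 FPKM in saline mice and 12.6, 11.9 and 10.97 FPKM in cocaine mice, with log2 ratios of 0.11, 0.11 and -0.27. The 7 d cocaine level was barely under the lowest saline level, that of 24 h, and it was the saline level of 7 d that lay apart. Eif2b5, the catalytic subunit and the most abundant, had log2 ratios of -0.01, -0.07 and -0.12. Eif2b2 was the 1 member whose cocaine level was above all 3 saline levels at every time, where 3.42% of genes were. It had 19.7, 18.7 and 19.8 FPKM in saline mice and 20.4, 20.1 and 20.5 FPKM in cocaine mice, a difference of at most 0.10 on the log2 scale.

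All 4 eIF2 kinases were lower at 7 d and none of the 4 at 24 h, where 52.6% and 47.0% of all loci were lower, and the differences were small except for that of Eif2ak4. Eif2ak4 (GCN2, which senses uncharged tRNA) had 2.38, 2.04 and 2.81 FPKM in saline mice and 2.27, 2.38 and 2.18 FPKM in cocaine mice. Its log2 ratios of -0.06, 0.22 and -0.35 changed sign, and the cocaine levels stayed within the saline range. Eif2ak2 (PKR, activated by double-stranded RNA) had log2 ratios of -0.15, 0.13 and -0.17. Eif2ak3 (PERK, the kinase of the endoplasmic reticulum) had saline levels of 4.605, 4.603 and 4.606 FPKM and cocaine levels of 4.83, 4.83 and 4.54 FPKM. Eif2ak1 (HRI), the most abundant of the 4 at 13.8 to 14.2 FPKM in saline mice, had log2 ratios of -0.00, 0.05 and -0.03.

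Eif1 was the most abundant initiation gene after the helicase Eif4a2. This factor, which keeps the scanning ribosome open until a start codon is met, had 216, 270 and 287 FPKM in saline mice and 236, 279 and 234 FPKM in cocaine mice. It was higher in cocaine mice at 2 h and 24 h (log2 ratios of 0.13 and 0.05) and lower at 7 d (-0.29), and all 3 cocaine levels were within the saline range. Its paralog Eif1b followed the same order of signs, with 0.18, 0.16 and -0.17. With the length trend subtracted the 7 d value of Eif1 was -0.17. Eif5, the GTPase activator that acts at the start codon, had the opposite course, with 59.1, 61.0 and 63.8 FPKM in saline mice and 49.7, 54.8 and 64.3 FPKM in cocaine mice. Its log2 ratios were -0.25, -0.16 and 0.01, and it was chosen after its values were seen. Eif5a, the hypusinated factor that helps ribosomes through difficult peptide bonds, had log2 ratios of 0.01, -0.02 and -0.12, and Eif5a2 of 0.00, -0.05 and 0.05.

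The eIF3 complex, the scaffold of the initiation complex, was measured through 14 genes. At 7 d 11 of the 14 were lower, where 52.6% of all loci and 79.7% of all members were. The median log2 ratio was -0.10, and the highest and lowest were Eif3f at 0.29 and Eif3m at -0.24. With the length trend subtracted, the median over the eIF3 genes with a length was 0.02. Eif3f was the 1 eIF3 gene past 1.2-fold, with 42.7, 47.0 and 37.0 FPKM in saline mice and 43.4, 43.8 and 45.2 FPKM in cocaine mice. Its cocaine levels were nearly constant and within the saline range, and the saline level of 7 d was the lowest of the 6. Eif3a, the largest subunit, was the other with a higher value of some size, at a 7 d log2 ratio of 0.21. Eif3e and Eif3m were below all 3 saline levels at each time. Eif3h, the most abundant subunit, had 98.5, 107 and 114 FPKM in saline mice and 103, 101 and 102 FPKM in cocaine mice. Reads of Eif3j1 and Eif3j2, which are near-identical, can be split between them, and their levels are uncertain.

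The cap-binding and unwinding factors of eIF4F and its partners showed no member past 1.2-fold at any time, of 12 at 2 h and 24 h and 11 at 7 d. Of all loci 7.77%, 5.9% and 12.4% were lower and 10.8%, 6.45% and 8.42% higher at 2 h, 24 h and 7 d. At 2 h and 24 h the eIF2, eIF2B, eIF3 and eEF1 genes had none past the fold either. Eif4a2, the helicase form that prevails in neurons, had 305, 303 and 338 FPKM in saline mice and 275, 292 and 297 FPKM in cocaine mice. All its cocaine levels were below all its saline levels, with log2 ratios of -0.15, -0.06 and -0.19. Eif4a1 had log2 ratios of 0.11, 0.08 and -0.09, and Eif4a3, of the exon junction complex, had -0.08, 0.05 and -0.15. Eif4a2 over Eif4a1 was 2.79, 2.97 and 2.86 in saline mice and 2.33, 2.70 and 2.67 in cocaine mice, without overlap. It was one of 12 gene pairs compared in this way, of which 2 showed no overlap, the other being Eif2ak1 over Eif2ak3, at 3.0 to 3.09 in saline mice and 2.94 to 2.98 in cocaine mice. The pairs were chosen after the values were seen, and how often other gene pairs show no overlap was not counted. Eif4a-ps4 shares sequence with the Eif4a genes.

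**Figure D4:**
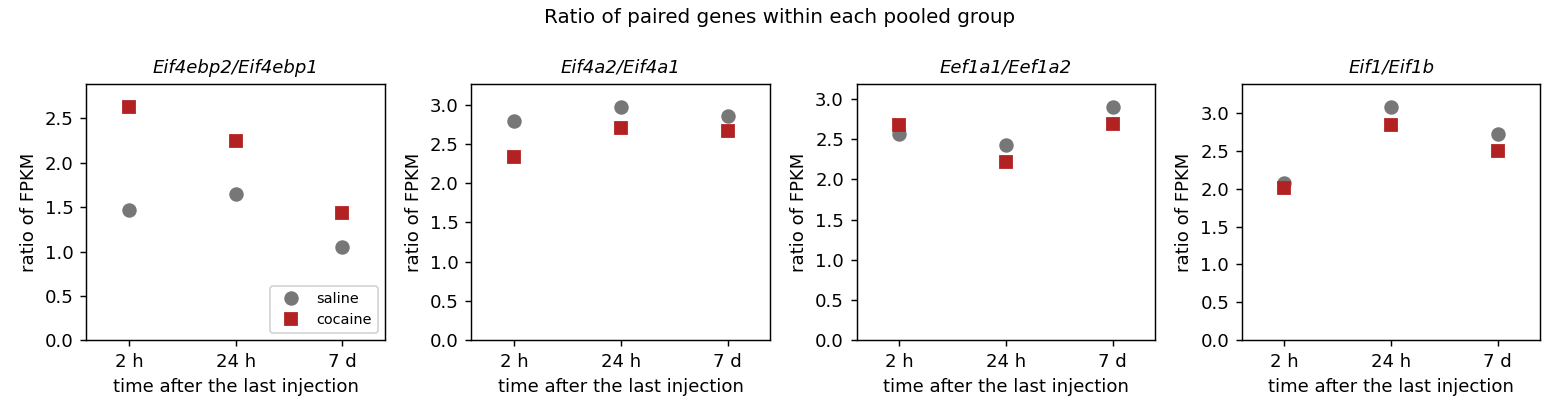
The ratio of FPKM between paired genes within each group (each axis from 0) is shown for saline (grey circles) and cocaine mice (red squares) at the 3 time points, with 1 value per group. The cocaine values of Eif4ebp2 over Eif4ebp1 lie above the saline value of the same time, from 1.44 to 2.63, those of Eif4a2 over Eif4a1 lie below every saline value, and the other pairs plotted overlap, with Eif2ak1 over Eif2ak3 not plotted.

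Eif4e, the cap-binding protein, had 41.3, 40.3 and 45.0 FPKM in saline mice and 38.7, 38.5 and 40.9 FPKM in cocaine mice, with log2 ratios of -0.09, -0.07 and -0.14. Its repressive relative Eif4e2 had 0.02, 0.09 and -0.02. The locus that carries Eif4e3 is merged with Foxp1 and a predicted gene, so its level is not that of Eif4e3. Among the scaffold genes, Eif4g1 had log2 ratios of 0.04 and 0.11 at 2 h and 24 h, Eif4g2 had 0.05, -0.07 and -0.10, and Eif4g3 had -0.00, 0.06 and -0.01. Eif4enif1, a transporter of eIF4E, was below all 3 saline levels at every time with log2 ratios from -0.11 to -0.04.

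In all, 7 of 59 members were below all 3 saline levels at every time (Eef1e1, Eif2a, Eif2s1, Eif3e, Eif3m, Eif4a2 and Eif4enif1), where 4.55% of genes were. The 3 time points were normalised separately, and some margins were narrow. The highest cocaine level was 19.93 FPKM against a lowest saline level of 19.98 FPKM for Eef1e1. For Eif4enif1 these were 12.38 and 12.43 FPKM, and for Eif2a, with a wider margin, 17.47 and 18.11 FPKM. Eef1e1, an auxiliary protein of the tRNA synthetase complex, had 19.98, 20.7 and 23.4 FPKM in saline mice and 18.2, 19.9 and 18.3 FPKM in cocaine mice. Its log2 ratios were -0.13, -0.05 and -0.36. It is one of the shortest members, and with the length trend subtracted the 7 d value was -0.18.

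The tRNA carrier eEF1A was the most abundant product. Eef1a1 had 1082, 1137 and 1135 FPKM in saline mice and 1134, 1066 and 1126 FPKM in cocaine mice, and Eef1a2, the form of mature neurons and muscle, had 421, 467 and 392 FPKM and 423, 482 and 419 FPKM. The log2 ratios of both lay between -0.09 and 0.10. The order by mean saline level, Eef1a1, Eef1a2, Eef2, Eif4a2 and Eif1, held without overlap of the saline levels except between the neighbours Eef2 and Eif4a2. The mouse genome carries many processed copies of Eef1a1, and how its reads were shared with them is a limit on its level. Of the exchange factors, Eef1b2 had a log2 ratio of -0.26 at 7 d and Eef1g of -0.00.

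Among the pseudogenes, Eif3s6-ps2 had 0.229 FPKM in saline mice and 3.74 FPKM in cocaine mice at 24 h. At 7 d it was listed at 0 in saline mice and at 0.647 FPKM in cocaine mice. At 2 h, where it was not tested, the order was the reverse, at 0.393 FPKM in saline mice and 0 in cocaine mice. Eif4a-ps4 had log2 ratios of 0.29, -0.09 and -0.22. Both resemble abundant parent genes, and their values are uncertain.

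Other genes of the pathway were set beside the factors. The cytosolic ribosomal proteins are the products that the factors work with. Of their 75 genes, 32 were at least 1.2-fold lower at 7 d, where 12.4% of all loci were. Their median log2 ratio was -0.24, and 73 were lower to any extent, where 52.6% of all loci were. The mitochondrial ribosomal proteins had 27 of 70 genes at least 1.2-fold lower and a median of -0.22. The initiation and elongation factors, at -0.10, were less far from 0 than either. Median lengths were not matched between these lists. At 2 h none of 74 cytosolic ribosomal protein genes was past 1.2-fold, where 7.77% of loci were lower and 10.8% higher. Their median was 0.08. At 24 h 2 of 74 were lower, where 5.9% of loci were, with a median of -0.07.

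In signalling to translation, 1 of 13 mTOR and MNK genes was past 1.2-fold lower at 7 d and 1 higher, where 12.4% and 8.42% of all loci were, with a median of 0.07. Mtor, the kinase that phosphorylates the 4E-BPs and restrains eEF2 kinase, had 8.27 FPKM in saline and 10.8 FPKM in cocaine mice, and Rheb, its activator, had 87.0 and 69.9 FPKM. At 2 h Mknk2, a kinase of eIF4E, had 9.00 and 12.3 FPKM, and Rps6kb2, a kinase of ribosomal protein S6, had 3.95 and 2.80 FPKM. None of 8 genes of the eIF2 stress response was past 1.2-fold at 7 d. At 2 h and 24 h 1 of 8 was higher, where 10.8% and 6.45% of all loci were. These were Ppp1r15b, a cofactor that removes phosphate from eIF2, at 9.37 and 11.4 FPKM at 2 h, and Nck1, an adaptor, at 10.0 and 12.4 FPKM at 24 h. Of the termination and recycling genes 1 of 6 was lower at 2 h (Mcts2), where 7.77% of all loci were. At 7 d 1 of 6 was lower (Mcts1, at 61.3 and 45.9 FPKM), where 12.4% of all loci were. None of 5 mitochondrial translation factors was past the fold at 7 d. Of 5 genes of poly(A)-binding proteins and of proteins that bind them (Pabpc1, Pabpc4, Paip1, Paip2 and Paip2b), 1, Pabpc4, was lower at 7 d.

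Markers of cell types were read from the same groups. The 6 markers of cortical neurons summed to 2120 to 2250 FPKM in every group, with cocaine over saline at 0.966, 0.983 and 0.951 for 2 h, 24 h and 7 d, and all 6 were detected in every group. Snap25 made up most of that sum and was lower in cocaine mice at each time, whereas 5 of the 6 markers were higher at 2 h and at 24 h and 4 of 6 at 7 d, when Neurod6 had 37.2 FPKM in saline and 28.1 FPKM in cocaine mice. Red blood cell genes, 5 of 5 found, gave 1.56, 1.1 and 1.17, and the 6 vascular markers gave 1.12, 0.976 and 1.15. Astrocyte markers gave 1.1, 0.891 and 1.09, with 5 of 6 found at 2 h and 24 h. At 7 d all 6 were found, with sums of 830 FPKM in saline and 902 FPKM in cocaine mice. Aldoc, at 517 and 551 FPKM, made up most of those sums. Oligodendrocyte markers gave 0.941, 0.833 and 0.992. Microglial markers gave 0.911 and 1.01 at 24 h and 7 d, with summed levels of 136 FPKM in saline and 143 FPKM in cocaine mice at 2 h. Markers of striatal neurons summed to 18.7 to 22.5 FPKM and those of the olfactory bulb to 7.29 to 9.05 FPKM. The 6 choroid plexus markers summed to 3.51 to 9.69 FPKM, with cocaine over saline at 0.805, 0.872 and 2.72. The last value came mostly from Ttr, at 0.284 and 6.54 FPKM, while Folr1 had 0.668 and 0.29 FPKM and Kcnj13 2.04 and 2.16 FPKM. The part of these differences in the values of the factor genes was not tested.

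Ratios at the time points rest on different saline and cocaine groups. Across the 59 members the Spearman correlation between log2 ratios was 0.28 for 2 h and 24 h, 0.33 for 2 h and 7 d and 0.11 for 24 h and 7 d, beside 0.11, 0.31 and 0.05 over all genes. The sign was the same in 37, 35 and 31 of the 59. Genes share their libraries, so these are descriptions of how far the members kept their order, which was little between 24 h and 7 d.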

How the data were processed

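Each of the 3 deposited tables covers a time point and is a Cuffdiff output of the authors, with 1 pooled FPKM per locus for each of the saline and cocaine groups. Per the submitters' processing notes the tools were CASAVA 1.8.2, Trimmomatic 0.32, TopHat2 2.0.12 and Cufflinks 2.2.1 with Cuffdiff, on GRCm38 (mm10), whereas the methods of the study name cutadapt and another build. Raw reads, strandedness and library totals were not analysed here, so overlapping and antisense genes could not be separated. Columns of the tables that hold the authors' fold change, test statistic, p value, q value and significance call were not used. Columns headed C were taken as saline, following the column heads of the study's supplementary tables.

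Loci with the status OK were kept, 1 per gene name, and a mean FPKM of at least 1 was required. The log2 ratio was log2((cocaine + 0.1)/(saline + 0.1)), which understates the change of low genes. A fold of 1.2 (0.263 on the log2 scale) stood in for a call. Named genes were members past 1.2-fold at any time, the 5 most abundant, the most abundant of each role and fixed paralog sets. The others that are named were chosen after their values were seen. The members, roles and lists were chosen with earlier results of these data known. Transcript lengths came from GENCODE vM1 by symbol, and start sites from RefSeq (GRCm38.p6). Tools were Python 3.11.15, pandas 2.3.3, numpy 2.4.6, scipy 1.17.1 and matplotlib 3.10.9. The code was tested on simulated data.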

Additional observations from a re-analysis of the deposited data

How the results depend on the processing

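With 1 pooled value per group, leaving out a library could not be done. No paired analysis was possible because the deposited columns carry no replicate numbers. The members' median log2 ratio kept its sign under every alternative at 7 d, as did the ratio of each member past 1.2-fold, while the median of 2 h, close to 0, turned to -0.01 with the median of all loci subtracted and to -0.02 with the length trend subtracted. Small ratios of other members also changed sign, and with the length trend subtracted Eif5a stood at 0.00 and the eIF3 median at 0.02 at 7 d. The counts of members past the fold moved as follows. With 1 FPKM added to each level, 1 member was higher at 2 h, 0 were lower at 24 h and 3 lower at 7 d, and 0 were higher by 1.1-fold at all 3 times. With a mean FPKM of at least 10, no member (0 lower, 0 higher) was past the fold at 2 h or 24 h, 1 was higher at 7 d, and 9 were above the 3 saline levels at 2 h. With the median of all loci subtracted, 2 were lower at 2 h, 22 were below and 10 above the saline levels at 2 h, 21 below and 7 above at 24 h, and 14 below and 8 above at 7 d, and 1 was higher at all 3 times. With the trend of transcript length subtracted, 2 were lower and 1 higher at 2 h, 0 higher at 24 h, and 2 lower and 3 higher at 7 d. At 1.1-fold in place of 1.2-fold, the lower and higher members numbered 6 and 7 for 2 h, 2 and 5 for 24 h, then 23 and 5 for 7 d. At 1.5-fold 0 were lower and 0 higher at 2 h and 7 d and 0 lower at 24 h. The share of all loci past 1.1-fold or 1.5-fold at a single time was not counted, so these counts have no background beside them. Without the pseudogenes and the merged Eif4e3 locus, 1 was higher at 2 h and 0 at 24 h. The last of these settings, the alternatives of the counts over the 3 saline levels those of the counts over all 3 times and those of the count of any lower value at 7 d were chosen after seeing the data. The cause of these shifts was not tested beyond the settings themselves. Low levels limit the smallest genes, since all of the members past 1.2-fold at 2 h and 24 h had a mean under 10 FPKM.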
